A study of Mus musculus with 18 samples.

Results

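Signals of 37 interferon response genes were followed in thymus and lymphoma RNA of 18 mice. The genes came as a list of symbols. Each was matched to the array probe sets that the platform annotation ties to that symbol alone, older symbols included (Ddx58 is now called Rigi), and where a gene had several the probe set with the highest mean log2 signal over the 18 arrays was used. Of the 37 genes 35 had such a probe set, among 18193 genes on the array. The other 2 were not analysed here: Ifi44 had no probe set under its name, and Isg15 was named only on a probe set shared with Gm9706. Oas2, Oasl2 and Mx1 were too dim to test, since a gene entered the tests only with a signal above 109 on at least 5 arrays. That left 32 of the 14019 genes tested, so the counts below are of these 32 and not of all 37. A gene that is bright in 1 group and dark in another can pass such a filter through the bright group alone.

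The controls were 5 mice named LckCre in the design text (Cre recombinase driven by the Lck promoter, active in thymocytes) and wild type in the sample labels. Which name holds was not settled, and they are called controls. The next group was 5 CD4Cre-Ctnnbex3 mice before T-cell transformation, in which Cre driven by the Cd4 promoter acts on the Ctnnb1 allele named Ctnnbex3 in thymocytes. That allele loses exon 3 and with it the sites that mark beta-catenin for destruction, so the protein is stabilised. The last group was 8 CD4Cre-Ctnnbex3 mice with lymphomas. RNA came from collected thymocytes or from tumour masses, with 1 array per mouse, and the design text calls the mice independent. No source used here gives their ages.

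Interferons are secreted proteins that bind receptors on neighbouring cells. Type I interferons act through the receptor chains Ifnar1 and Ifnar2 and the kinases Jak1 and Tyk2, which phosphorylate Stat2. A complex of Stat2 and Irf9 forms in the nucleus and turns on genes whose promoters hold an interferon-stimulated response element (ISRE). Interferon gamma acts through Ifngr1, Ifngr2, Jak1 and Jak2, and many of its target genes hold a gamma-activated site (GAS). The genes switched on include sensors of foreign RNA and DNA, proteins that block viral replication, the ubiquitin-like modifier ISG15 and its enzymes, and GTPases that act on the membranes around intracellular parasites. In the thymus, medullary cells make type I interferon without infection, and maturing thymocytes respond to it.

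All signals are on the deposited linear scale of the array, on which a level cannot be set against that of another gene. A floor was put at 53.5 (5.74 in log2), and values at the floor have no order. Array medians lay between 125 and 166. Mice 1 and 2 before transformation lay below mice 3 to 5 of that group for most of the genes described here, as given below. By Xist and Eif2s3y, controls 1 and 2 gave female signals, controls 3 to 5 and all 5 mice before transformation male ones, and the lymphomas female ones except lymphoma 3 (male) and lymphoma 4 (both). Spike-in control probe sets averaged 9.95 to 10.68 (log2) in lymphomas and 10.74 to 11.24 in the other mice, and the part of this shift in the results was not tested.

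Promoter sequences are shown first, because the ISRE is the textbook link between these genes. The RefSeq table used (build GRCm38.p6) gave 250 bases before and 50 after the annotated start for 28 of the 37 genes. The letters TTTCNNTTTC, the core of an ISRE, were searched on both strands, as were the letters TTCNNNGAA of a GAS, and 1 window held overlapping matches to both. ISRE letters stood in 15 of the 28 genes (53.6%), against 3.99% of 27025 genes in the table. GAS letters stood in 9 (32.1%) against 9.55%. A match is a run of letters and was not tested for binding. The 250 bases before the start are printed for the 6 genes with the smallest adjusted p among those past the threshold in at least 2 of the 3 comparisons with ISRE letters before the start, 5′ to 3′ in the direction of transcription, with the matches in capitals. They are printed as examples. All were chosen for holding the letters, so the likeness of the capitals is not a result. The regions are chr11:58199306-58199555 (plus strand) for Igtp, chr11:58214727-58214976 (plus) for Irgm2, chr10:128270248-128270497 (plus) for Stat2, chr11:48871421-48871670 (minus) for Irgm1, chr19:34640639-34640888 (plus) for Ifit1 and chr8:71537473-71537722 (minus) for Bst2.
Igtp: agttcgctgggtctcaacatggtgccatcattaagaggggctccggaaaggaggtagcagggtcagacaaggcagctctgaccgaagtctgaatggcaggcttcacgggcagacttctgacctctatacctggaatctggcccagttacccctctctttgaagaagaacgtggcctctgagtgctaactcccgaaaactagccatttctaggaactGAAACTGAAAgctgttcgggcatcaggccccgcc
Irgm2: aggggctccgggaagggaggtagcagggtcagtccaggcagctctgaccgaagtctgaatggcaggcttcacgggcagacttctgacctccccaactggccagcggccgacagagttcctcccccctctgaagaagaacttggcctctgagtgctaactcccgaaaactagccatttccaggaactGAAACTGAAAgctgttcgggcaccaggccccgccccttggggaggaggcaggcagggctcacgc
Stat2: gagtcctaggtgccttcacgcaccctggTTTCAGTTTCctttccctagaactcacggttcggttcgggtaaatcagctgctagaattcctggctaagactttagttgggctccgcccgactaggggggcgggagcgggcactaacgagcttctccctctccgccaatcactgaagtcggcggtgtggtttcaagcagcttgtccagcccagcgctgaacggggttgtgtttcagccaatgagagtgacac
Irgm1: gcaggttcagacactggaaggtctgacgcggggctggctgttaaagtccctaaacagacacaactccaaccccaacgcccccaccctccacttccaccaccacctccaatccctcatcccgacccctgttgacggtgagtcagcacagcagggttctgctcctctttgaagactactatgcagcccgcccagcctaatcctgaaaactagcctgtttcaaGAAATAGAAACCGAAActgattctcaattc
Ifit1: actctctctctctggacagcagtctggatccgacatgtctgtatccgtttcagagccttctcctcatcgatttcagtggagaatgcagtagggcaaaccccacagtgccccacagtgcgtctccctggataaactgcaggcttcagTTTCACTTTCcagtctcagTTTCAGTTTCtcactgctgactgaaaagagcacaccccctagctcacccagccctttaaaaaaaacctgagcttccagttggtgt
Bst2: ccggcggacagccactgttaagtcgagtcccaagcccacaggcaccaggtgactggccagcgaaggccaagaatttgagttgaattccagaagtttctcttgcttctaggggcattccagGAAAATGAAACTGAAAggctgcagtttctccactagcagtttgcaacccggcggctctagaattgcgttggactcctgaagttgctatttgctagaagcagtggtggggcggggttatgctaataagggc

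In Igtp and Irgm2, which lie near each other on chromosome 11, the same capitals began 34 and 64 bases before the start. In Stat2 they began 222 bases before it. Irgm1 had 2 overlapping matches at 30 and 24 bases, Ifit1 had 2 separate ones at 104 and 85, and Bst2 had 2 overlapping ones at 130 and 124. Genes with these letters differed at different steps. Igtp and Irgm2 had lower signals in lymphomas than before transformation, Bst2 had higher ones, and Irgm1 and Ifit1 were lower before transformation than in controls. Of the 14 tested genes with ISRE letters, 5 were lower before transformation than in controls, 6 lower and 2 higher in lymphomas than before transformation, and 9 lower in lymphomas than in controls. Of the 11 tested genes whose windows did not hold them, 4, 3 and 8 were lower. The shares of all genes lower in these comparisons were 6.18%, 18.3% and 22.7%. Whether genes with and without the letters differ was not tested.

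The first comparison asked how far these genes differed in thymus with stabilised beta-catenin before a tumour had formed. Of the 32 genes 11 were lower before transformation than in controls at an adjusted p under 0.05 (limma, Benjamini-Hochberg over all 14019 genes), against 6.18% of all genes tested. None was higher in this limma fit (1 at an unadjusted p under 0.05), where the share of all genes was 4.37%. The values of 8 of the 32 did not overlap and were lower before transformation (all genes, 6.24%), and for none did they lie wholly higher (4.32%). The median log2 difference of the 32 genes was -0.52, and over all genes it was -0.02; 26 differences were negative and 6 positive. These 11 were Irf1, Ifih1, Ifit1, Isg20, Xaf1, Bst2, Trim25, Parp9, Parp14, Gbp2 and Irgm1. Calls for Irf1, Ifit1, Bst2 and Isg20 were the least stable: the first 3 missed the threshold under 13 of 23 alternative settings each and Isg20 under 12, with adjusted p-values of up to 0.33. Leaving out single mice moved the count between 7 and 15 (all genes, 4.5% to 7.1%). It was 7 without control 1, control 5 or mouse 1 or 2 of the group before transformation.

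The next comparison set lymphomas against thymus before transformation. Here 12 genes were lower (all genes, 18.3%) and 2 were higher, Bst2 and Ifit3 (all genes, 16.0%). The median difference was -0.38, against -0.03 over all genes. Only 4 genes were lower without overlap, Igtp, Zbp1, Trim21 and Stat2 (all genes, 8.85%), and none was higher without overlap (6.67%). The share of members called lower lay nearer the background here than in the first comparison. The split of all genes moved with scaling: 2572 genes were lower and 2244 higher on the deposited scale, 1897 and 2680 after each array was centred on its median, and 2610 and 2632 after quantile normalization. The counts of interferon response genes were 12 lower and 2 higher under each of these.

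Against controls, 23 of the 32 genes were lower in lymphomas (all genes, 22.7%) and none was higher, at an adjusted or an unadjusted p under 0.05 in limma (all genes at the adjusted p, 17.4%). The values of 15 did not overlap and were lower (all genes, 12%), none lay wholly higher (8.21%), and the median difference was -0.87 against -0.03. All genes split into 3184 lower and 2435 higher on the deposited scale, 2372 and 3063 after median centring, and 2916 and 2964 after quantile normalization. Both scalings left 22 of the interferon response genes lower and none higher. The 3 comparisons share groups, so their counts are not independent of each other. In such bulk RNA, fewer cells of a type and less RNA per cell cannot be told apart.

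**Figure D1:**
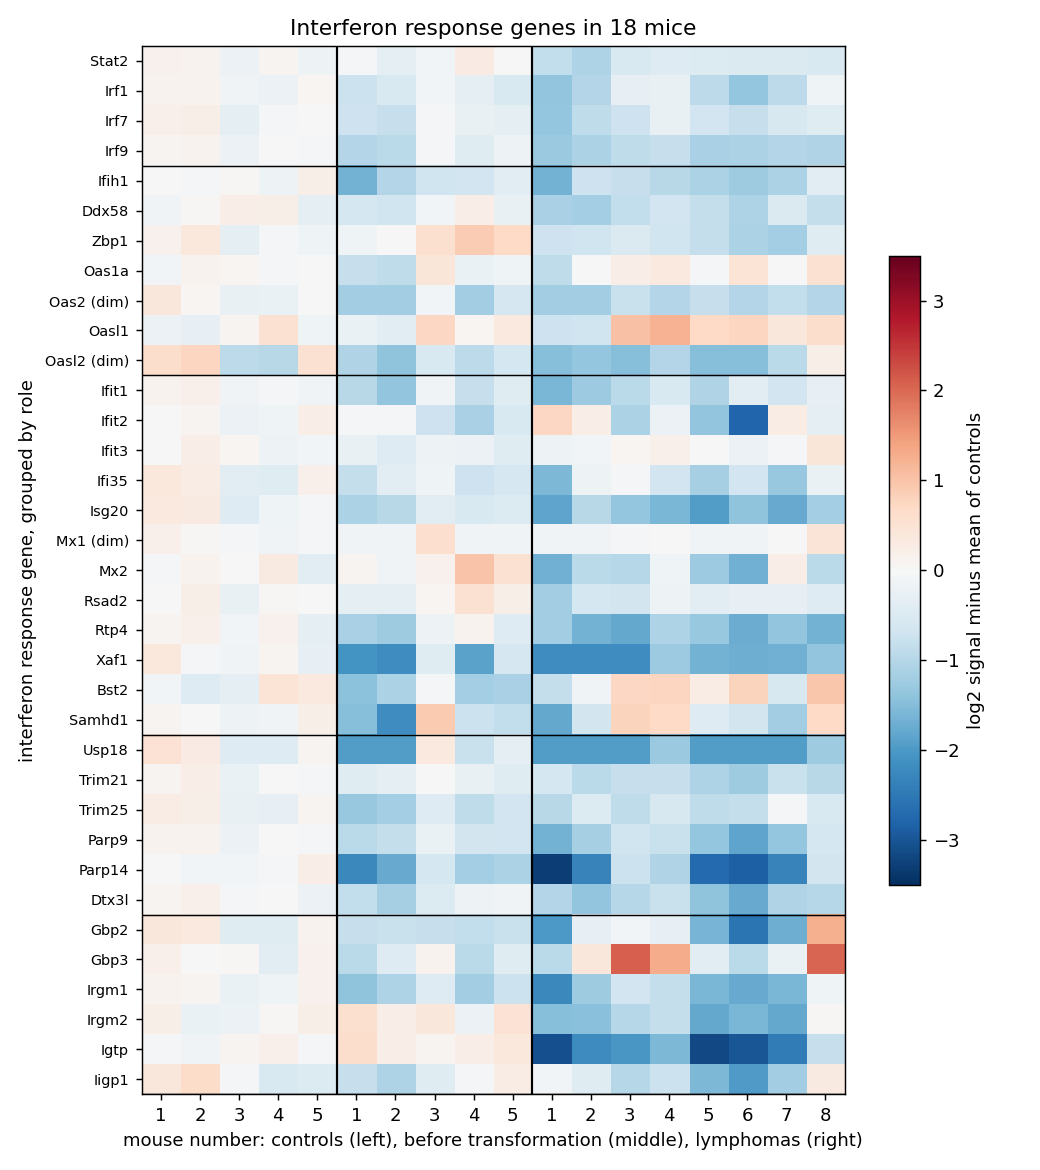
Log2 signal of the 35 interferon response genes with a probe set (rows, by role) in each of the 18 mice (columns), minus the mean of the 5 controls; blue is below and red above that mean, and genes marked dim were not tested. Most rows are pale in controls and bluer in mice 1 and 2 before transformation than in mice 3 to 5. The lymphoma mean lies below the mean of the group before transformation in 25 of the 32 tested rows. Mice 1 and 2 of that group lie below the lymphoma median in some rows, such as Trim25, Samhd1 and Xaf1. Oasl1, Bst2 and Gbp3 are red in several tumours.

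Among the transcription factors, all 4 were lower in lymphomas than in controls (all genes, 22.7%), and only Irf1 was lower before transformation (6.18%). Stat2 is a subunit of the type I interferon transcription complex. Its signals were 400, 393, 313, 388 and 322 in controls 1 to 5, 351, 291, 336, 437 and 354 in mice 1 to 5 before transformation, and from 170 through a median of 252 to 263 in the 8 lymphomas. The first 2 groups overlapped and all lymphomas lay below them. Its log2 difference was -0.04 ± 0.13 (SE; adjusted p = 0.92) before transformation, and lymphomas stood 0.58 ± 0.14 below that group (adjusted p = 0.0046). The gene's other probe set gave -0.76 for the latter difference.

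Irf9 completes that complex. Controls gave 539, 555, 441, 512 and 495, and mice before transformation 251, 264, 493, 377 and 450. Mice 1 and 2 of the latter lay at the level of the lymphomas (206, median 241, 292 at most), whereas mice 3 and 5 lay within the control range. Its difference before transformation, -0.52 ± 0.19, missed the threshold (adjusted p = 0.11). Lymphomas were 2.07-fold lower than controls without overlap (log2 difference -1.05 ± 0.10, adjusted p = 2.5e-06) and also lower than the group before transformation (-0.53 ± 0.16, adjusted p = 0.022).

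Irf1, an early target of interferon gamma, gave 1383, 1390, 1178, 1113 and 1323 in controls and 759, 881, 1188, 1023 and 880 before transformation. The difference of -0.44 ± 0.12 passed the test (adjusted p = 0.037), although mouse 3 before transformation lay within the control range. Lymphomas spread from 486 (median 675) to 1153 and overlapped both groups, and their difference from controls was -0.79 ± 0.21 (adjusted p = 0.0075). Irf7, which amplifies type I interferon production, gave 591, 603, 420, 506 and 528 in controls and 318, 299, 509, 439 and 412 before transformation. That difference of -0.44 ± 0.16 did not pass (adjusted p = 0.12). In lymphomas Irf7 ran from 205 (median 323) to 442 and was lower than in controls, by -0.71 ± 0.16 on the log2 scale (adjusted p = 0.0029), with 1 lymphoma inside the control range.

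The nucleic acid sensors did not move together. Ifih1, which encodes the long double-stranded RNA sensor MDA5, was the only one of the 5 tested that was lower before transformation (all genes, 6.18%). Its signals were 165, 162, 172, 147 and 194 in controls and 53.5 (the floor), 82.7, 103, 105 and 127 before transformation, with no overlap (log2 difference -0.88 ± 0.21, adjusted p = 0.017). Lymphomas (53.5 to 129, median 81.4) covered the range of the group before transformation (-0.11 ± 0.23, adjusted p = 0.73) and lay below all controls (-0.997 ± 0.18, adjusted p = 0.00052). Ddx58 encodes RIG-I, the sensor of short RNA with a triphosphate end. It gave 867, 976, 1121, 1091 and 759 in controls and 627, 589, 898, 1110 and 802 before transformation, which overlapped. Lymphomas, from 419 (median 528) to 668, lay below all controls (-0.89 ± 0.13, adjusted p = 0.00013) and were lower than the group before transformation (-0.61 ± 0.16, adjusted p = 0.010), with lymphomas 4 and 7 in its range. The gene's 2 dimmer probe sets disagree with this: lymphomas differed by 0.31 and 0.07 from the group before transformation and by 0.16 and -0.26 from controls. With the mean of all its probe sets, the difference from the group before transformation was -0.08 and did not pass (adjusted p = 0.67).

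Zbp1, a sensor of Z-form nucleic acid that can start necroptosis, was a gene with the opposite sign before transformation. Controls gave 653, 768, 478, 573 and 534 and mice before transformation 532, 599, 869, 1098 and 964. Mice 3, 4 and 5 lay above every control, mice 1 and 2 within their range, and the pooled difference of 0.40 ± 0.20 did not pass (adjusted p = 0.30). All lymphomas (260, median 362, highest 441) lay below both groups. They differed from the group before transformation by -1.18 ± 0.19 (adjusted p = 0.00029) and from controls by -0.78 ± 0.15 (adjusted p = 0.00087), and the other probe set gave -1.41 and -1.28.

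The OAS proteins make 2′-5′ linked oligoadenylate that activates RNase L, and Oasl1 is an inactive relative that holds back translation of Irf7. Oas1a ran from 227 to 262 in controls, was 138, 130, 324, 204 and 215 before transformation and ran from 130 (median 262) to 347 in lymphomas. Oasl1 gave 247, 233, 304, 411 and 258 in controls, 240, 222, 471, 300 and 363 before transformation and 171 (median 447) to 659 in lymphomas. Neither passed in any comparison. For Oasl1, lymphomas 1 and 2 held the lowest values (171 and 175) and the other 6 lay at 372 or more. The dim Oas2 lay at 104 to 165 in controls, 53.5 (floor), 53.5, 116, 53.5 and 83.8 before transformation and at or under 73.0 in lymphomas. Oasl2 lay at 77.7 to 253 in controls, 56.8 to 104 before transformation and at the floor in 4 of 8 lymphomas, with 1 at 173.

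**Figure D2:**
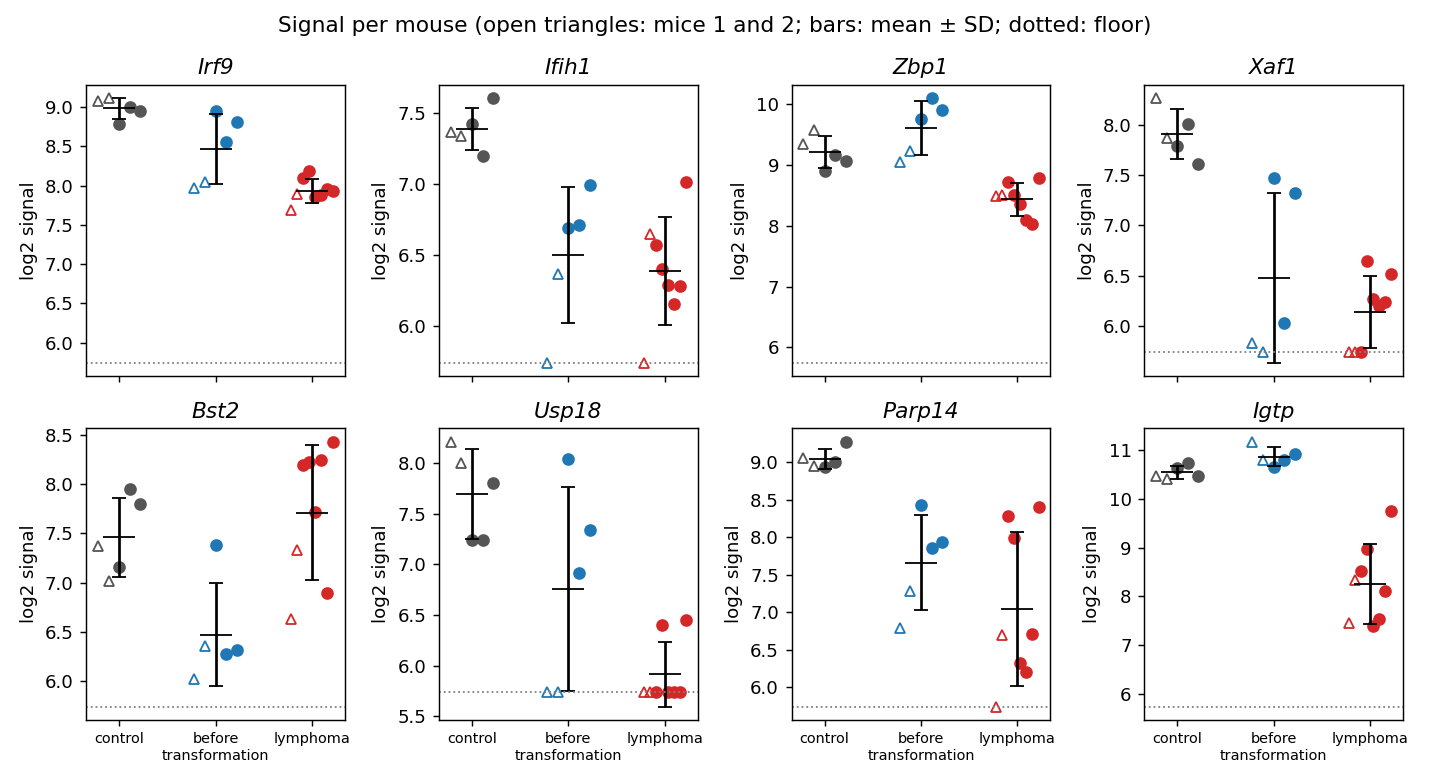
Log2 signal per mouse of 8 genes in controls, mice before transformation and lymphomas, with open triangles for mice 1 and 2 and filled circles for the others; horizontal ticks and bars are means and SD over 5, 5 and 8 mice, and the dotted line is the floor at 5.74. Igtp and Zbp1 separate lymphomas from both thymus groups, Ifih1, Xaf1 and Parp14 separate controls from both CD4Cre-Ctnnbex3 groups, and Bst2 is lowest before transformation.

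Of the 11 antiviral effectors tested, 4 were lower before transformation (Ifit1, Isg20, Xaf1 and Bst2) and 7 were lower in lymphomas than in controls. The shares of all genes were 6.18% and 22.7%. Xaf1, which blocks the caspase inhibitor XIAP, had the largest difference of the 32 before transformation. Its signals were 308, 233, 221, 258 and 195 in controls and 56.9, 53.5, 178, 65.4 and 160 before transformation. No value overlapped, and mice 3 and 5 lay nearest to controls (log2 difference -1.43 ± 0.34, adjusted p = 0.018). Lymphomas ran from the floor, reached by 3 of 8, through a median of 74.6 to 100.5 (-1.77 ± 0.18 from controls, adjusted p = 4.1e-06). The second probe set of Xaf1 was at the floor on 13 of the 18 arrays.

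Isg20, an exonuclease that degrades single-stranded RNA, was the only gene of the 32 lower at both steps. Controls gave 406, 397, 237, 289 and 311, and mice before transformation 149, 165, 247, 222 and 230. Mouse 3 of the latter overlapped the lowest control (-0.69 ± 0.19, adjusted p = 0.036). Lymphomas were lower again, from 83.0 (median 114) to 163 (-0.82 ± 0.19 from the group before transformation, adjusted p = 0.0038), and 2.85-fold below controls without overlap (adjusted p = 1.8e-05). Rtp4, an inhibitor of flavivirus replication, gave 997, 1068, 874, 1045 and 762 in controls and 427, 398, 837, 1027 and 695 before transformation. Mice 1 and 2 were the low ones, and the difference of -0.57 ± 0.24 did not pass (adjusted p = 0.19). Lymphomas, from 273 (median 329) to 443, lay below all controls (-1.48 ± 0.14, adjusted p = 1.6e-06) and were lower than the group before transformation (-0.91 ± 0.22, adjusted p = 0.0054).

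Bst2 encodes tetherin, which holds budding virions at the cell surface. It fell and then rose: controls gave 166, 130, 143, 247 and 222, mice before transformation 65.1, 82.2, 167, 77.3 and 79.8, and lymphomas 99.2 (median 252) to 345. Before transformation 4 of 5 mice lay below every control, and mouse 3 lay within their range (-0.99 ± 0.26, adjusted p = 0.032). The rise in lymphomas was 2.35-fold (log2 difference 1.24 ± 0.32, adjusted p = 0.0088), which left them 0.25 ± 0.30 from controls (adjusted p = 0.54). Bst2 is also a marker of plasmacytoid dendritic cells. Of the 6 tested genes of that marker list 4 were lower before transformation, Bst2 among them (all genes, 6.18%). The summed signal of the list was 6135 to 6470 in controls, 2906 to 3566 before transformation and 1640 to 6151 in lymphomas. Its largest term was Ccr9, which thymocytes also express, and the part of such cells in the result was not tested.

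The IFIT proteins bind viral RNA. Ifit1 gave 241, 251, 202, 214 and 206 in controls and 112, 84.7, 205, 127 and 165 before transformation, where mouse 3 alone reached the control range (-0.74 ± 0.21, adjusted p = 0.043). Lymphomas (73.9, median 127, highest 181) lay below all controls (-0.84 ± 0.20, adjusted p = 0.0038). Ifit3 gave 329, 391, 344, 292 and 307 in controls and 275, 241, 290, 289 and 247 before transformation, a difference without overlap that did not pass (-0.31 ± 0.11, adjusted p = 0.11). Lymphomas, at 286 (median 328) to 445, were higher than the group before transformation by 0.33 ± 0.12 (adjusted p = 0.045) and 0.02 ± 0.12 from controls. Ifit2 spread in lymphomas from the floor to 598 and passed in no comparison.

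Mx2 and Rsad2 were lower in lymphomas than in either other group and passed no test before transformation. Mx2, a dynamin-like GTPase, gave 167, 188, 173, 214 and 134 in controls and 186, 158, 193, 347 and 251 before transformation. Lymphomas ran from the floor (2 of 8) through 88.3 to 202, where lymphomas 4 and 7 lay within the control range. They differed from the group before transformation by -1.27 ± 0.31 (adjusted p = 0.0060). Rsad2 encodes viperin, an enzyme that makes a chain-terminating nucleotide. Its signals were 293 to 402 in controls, 282, 273, 366, 500 and 401 before transformation, and 150 (median 260) to 306 in lymphomas (-0.54 ± 0.19, adjusted p = 0.035). Dimmer probe sets of Rsad2 gave -0.09 and -0.48 in lymphomas against the group before transformation, and -0.11 and -0.49 against controls. The dim Mx1 was at or near the floor, with a highest value of 88.5 in mouse 3 before transformation.

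Ifi35 was lower in lymphomas than in controls (-0.73 ± 0.26, adjusted p = 0.036), with values from 220 (median 414) to 635 against 489 to 843. Samhd1 depletes the nucleotides that retroviruses need. It was even in controls (854, 801, 712, 743 and 930) and uneven before transformation (287, 180, 1510, 478 and 446) and in lymphomas (233 to 1391, median 554). Mouse 3 before transformation lay above all controls and the other 4 below them, and no difference passed. Its 4 other probe sets split over lymphomas against the group before transformation, with 1 at 0.65 and 3 between -0.69 and -0.53, so no direction is drawn there. For lymphomas against controls these 4 ran from -0.96 to -0.09, and the one used gave -0.32. In that comparison Samhd1 passed under 1 of 25 alternative settings (limma, adjusted p = 0.0079) and changed sign under 1 other.

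All 6 enzymes of ISG15, ubiquitin and ADP-ribose tested were lower in lymphomas than in controls (all genes, 22.7%). Of these, 5 were lower without overlap (all genes, 12%). Before transformation 3 of the 6 were lower than in controls (all genes, 6.18%). Parp14, a mono-ADP-ribosyltransferase, had signals of 531, 494, 492, 514 and 619 in controls and 110, 156, 345, 231 and 246 before transformation. That was a 2.61-fold difference without overlap (log2 -1.39 ± 0.25, adjusted p = 0.0038). Lymphomas were split: lymphomas 3, 4 and 8 gave 312, 254 and 338, and the other 5 lay between the floor and 105. They were 4.01-fold below controls (log2 -2.002 ± 0.41, adjusted p = 0.0014) and not shown to differ from the group before transformation (-0.62 ± 0.45, adjusted p = 0.31).

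Parp9 and Dtx3l form a complex that attaches ubiquitin to histones and host proteins. Parp9 gave 719, 720, 573, 645 and 638 in controls and 341, 368, 559, 421 and 411 before transformation without overlap (-0.67 ± 0.13, adjusted p = 0.0064). Lymphomas, from 183 (median 276) to 427, lay 1.18 ± 0.20 below controls (adjusted p = 0.00027). For Dtx3l the controls were 1168, 1225, 1041, 1091 and 945 and the mice before transformation 600, 487, 779, 971 and 992. Mice 4 and 5 lay in the control range and the difference of -0.56 ± 0.18 did not pass (adjusted p = 0.083). The other probe set gave -1.17 there, and with the mean of both the difference was -0.87 and passed (adjusted p = 0.0026). In lymphomas Dtx3l ran from 324 (median 530) to 639 and was lower than in both groups (-0.61 ± 0.20 from the group before transformation, adjusted p = 0.025, and -1.17 ± 0.15 from controls, adjusted p = 2.5e-05). The other probe set gave -0.71 and -1.88.

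Trim25 attaches the ubiquitin chains that activate RIG-I. Its signals were 1410, 1346, 972, 962 and 1248 in controls and 471, 518, 854, 636 and 736 before transformation, with no overlap (-0.90 ± 0.17, adjusted p = 0.0055). Lymphomas lay at 598 (median 723) to 1130, not shown to differ from that group (0.25 ± 0.18, adjusted p = 0.30). Trim21, a receptor for antibody-coated virus in the cytosol, changed at the other step. It gave 584, 651, 471, 545 and 522 in controls, 409, 441, 547, 462 and 410 before transformation (-0.29 ± 0.11, adjusted p = 0.16) and 232 (median 301) to 361 in lymphomas, below all thymus samples (-0.61 ± 0.12 from the group before transformation, adjusted p = 0.0016). Usp18 removes ISG15 from proteins and blocks Ifnar2. It gave 296, 255, 151, 151 and 223 in controls, the floor, the floor, 262, 120 and 162 before transformation, and the floor in 6 of 8 lymphomas with 84.5 and 87.5 in lymphomas 4 and 8. It was at least 3.44-fold lower in lymphomas than in controls (adjusted p = 1.1e-05). Before transformation it did not pass (-0.94 ± 0.42, adjusted p = 0.22).

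**Figure D3:**
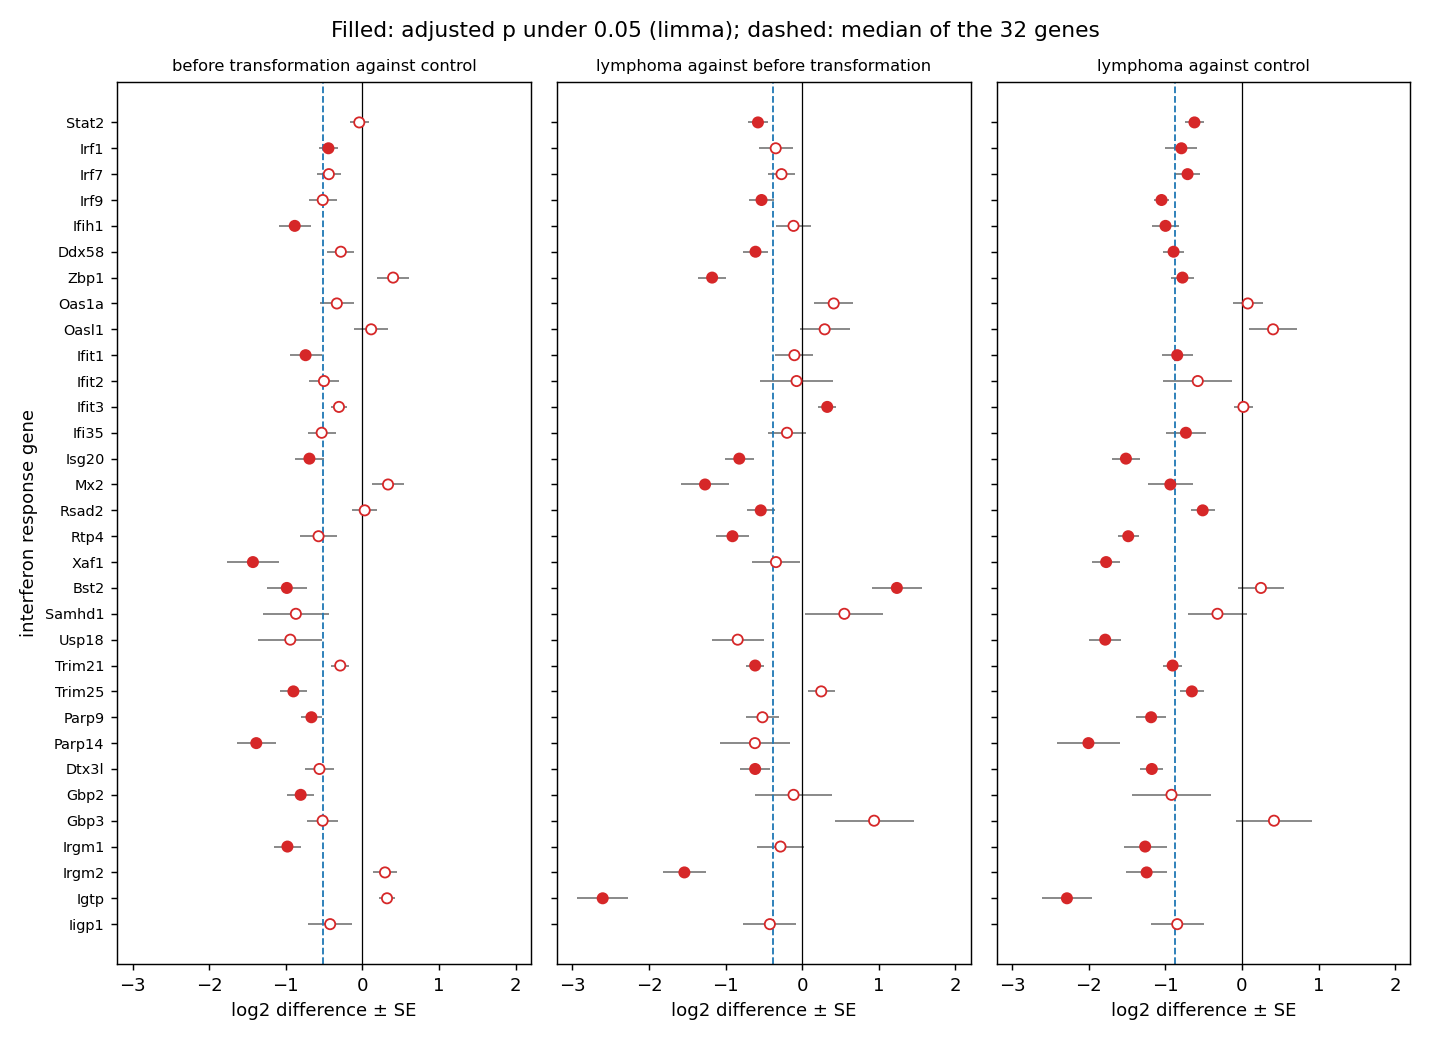
Log2 difference with its SE for each of the 32 genes tested in the 3 comparisons, with filled points for an adjusted p under 0.05 and a dashed line at the median of the 32 genes. Igtp stands at 0.32, -2.60 and -2.28 from left to right, and Bst2 at -0.99, 1.24 and 0.25.

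The interferon-inducible GTPases held the gene with the largest change of all 32. Igtp (also called Irgm3) regulates the loading of other GTPases onto membranes. Controls gave 1418, 1362, 1590, 1697 and 1412, and mice before transformation 2303, 1766, 1606, 1768 and 1932, so that 4 of 5 lay above every control (0.32 ± 0.10, adjusted p = 0.079). Lymphomas gave 168 (median 299) to 859, far below every thymus sample. The signal was 6.07-fold lower than before transformation (log2 -2.60 ± 0.33, adjusted p = 5.6e-05) and 4.87-fold lower than in controls (adjusted p = 8.6e-05). Its neighbour Irgm2 followed it, with 214, 157, 160, 193 and 215 in controls, 273, 219, 243, 162 and 264 before transformation and the floor (2 of 8) through 66.9 to 193 in lymphomas. Lymphoma 8 alone reached the range of thymus (-1.54 ± 0.28 from the group before transformation, adjusted p = 0.00077).

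Irgm1, the regulator that acts with them, differed at the earlier step. It gave 458, 454, 362, 382 and 470 in controls and 160, 201, 312, 181 and 250 before transformation, without overlap (-0.98 ± 0.17, adjusted p = 0.0033). Lymphomas ran from 88.6 (median 159) to 384, where lymphoma 8 alone reached the controls (-1.26 ± 0.28, adjusted p = 0.0024). The difference from the group before transformation was -0.28 ± 0.30 (adjusted p = 0.50). The IRG genes resemble each other, and whether a probe set also binds RNA of a relative was not tested.

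The guanylate-binding proteins Gbp2 and Gbp3 attack the membranes of vacuoles with pathogens. Gbp2 gave 417, 395, 233, 232 and 344 in controls and 180, 184, 179, 173 and 182 before transformation, a close cluster below every control (-0.81 ± 0.17, adjusted p = 0.010). In lymphomas it spread from the floor (lymphoma 6) to 747 (lymphoma 8), with a median of 179, and no difference passed. Its probe set is of a type that Affymetrix marks as open to cross-hybridisation. The other one gave -1.34 before transformation. Gbp3 was dim in controls (80.0 to 115) and before transformation (at most 112), and in lymphomas 3, 4 and 8 it stood at 440, 254 and 420. Iigp1 passed in no comparison, with 477, 568, 351, 252 and 259 in controls, 207, 172, 269, 348 and 431 before transformation and 91.3 (median 197) to 446 in lymphomas. Its log2 differences were -0.42 before transformation, -0.42 in lymphomas against that group and -0.84 in lymphomas against controls. The other probe set gave -0.71, 0.75 and 0.04, so no direction is drawn for lymphomas.

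Much of the difference before transformation lay in mice 1 and 2. Those 2 mice held the lowest value of their group for 14 genes each of the 32, and mouse 3 held the highest for 19. Controls 1 and 2 held the highest control value for 8 and 13. Within mice 1 and 2 the median difference was -0.98, and 20 genes were lower at the threshold (all genes, a median of -0.07 and 4.59% lower). Within mice 3 to 5 it was -0.18 (all genes, 0.03), and 1 gene was lower (Parp14, -1.0 ± 0.18, adjusted p = 0.014) and 1 higher (Zbp1, 0.88 ± 0.12, adjusted p = 0.0051). Over all genes 5.07% were lower and 3.995% higher there, so 1 of 32 in either direction is near the background. The difference was the lower of the pair in mice 1 and 2 for 29 of 32 genes. With the male mice alone (3 controls and 5 before transformation), Parp14 (-1.42 ± 0.32, adjusted p = 0.029) and Irgm1 (-0.91 ± 0.22, adjusted p = 0.038) were lower, against 3.26% of all genes. Sex goes with group in mice 1 and 2, where controls gave female and mice before transformation male signals, and cannot be told apart from group there.

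A test of that discrepancy, chosen after it was seen, asked whether the difference before transformation itself differed between the sets of mouse numbers. It passed for 4 of the 32 genes, Usp18 (extra log2 difference in mice 1 and 2 of -2.36 ± 0.42, adjusted p = 0.047), Iigp1 (-1.74 ± 0.31, adjusted p = 0.047), Zbp1 (-1.21 ± 0.19, adjusted p = 0.031) and Isg20 (-1.11 ± 0.21, adjusted p = 0.049). Over all genes 0.642% passed. At an unadjusted p under 0.05 it was 20 of the 32, and 15.7% of all genes. No source used here says what the mouse numbers stand for.

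**Figure D4:**
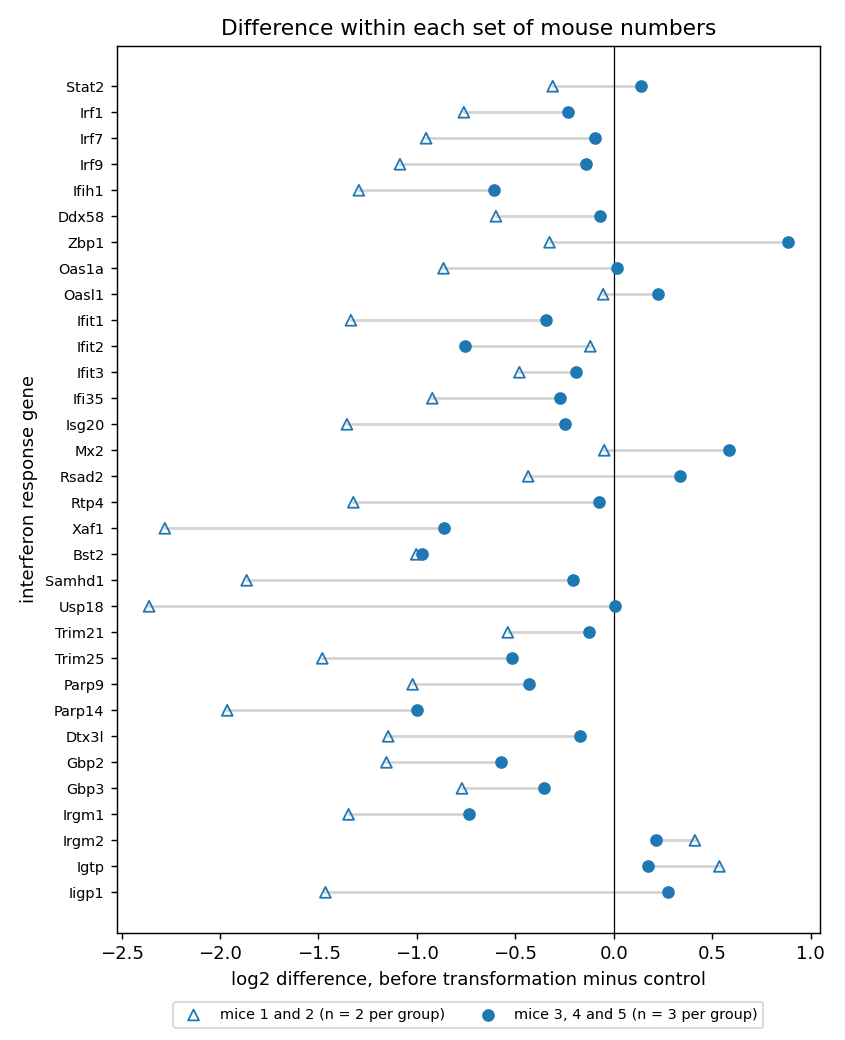
Log2 difference between mice before transformation and controls for each of the 32 genes, computed within mice 1 and 2 (open triangles, 2 per group) and within mice 3, 4 and 5 (filled circles, 3 per group). The triangles centre on -0.98 and the circles on -0.18, and Parp14, Xaf1, Bst2 and Irgm1 are well below 0 in both.

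The lymphomas' difference from controls was present in both sets. Among mice 3 and up, controls gave male signals and lymphomas female ones, except lymphoma 3 (male) and lymphoma 4 (both). All mice before transformation gave male signals. Sex thus went largely with group there and in lymphomas against the group before transformation, and its part was not tested. Within mice 1 and 2, where controls and lymphomas both gave female signals, 22 genes were lower (median -1.28), against 14.6% of all genes. Among mice 3 and up 18 were lower (median -0.74) and Oasl1 was higher, against 21.0% and 20.7% of all genes, and 17 genes passed in both sets in the same direction. Between lymphomas and mice before transformation 5 genes passed in both sets, all lower: Stat2, Zbp1, Mx2, Irgm2 and Igtp. In mice 1 and 2 no others passed (all genes, 8.38% lower), whereas 13 were lower in mice 3 and up, with Bst2 higher (all genes, 23.0% and 18.7%). The share of all genes passing in both sets was not counted, so the 17 and the 5 have no background to be set against. The test of the difference between sets passed for Stat2 in lymphomas against controls (-0.70, adjusted p = 0.040), where 3.37% of all genes passed. At an unadjusted p under 0.05 it was 8 of the 32 there, near the 23.1% of all genes. In sign, though, the difference from controls was the lower of the pair in mice 1 and 2 for 31 of 32 genes. The median gap was -0.55. In lymphomas against the group before transformation it was the lower for 13 of 32. In limma the test of the difference between sets passed for none of the 32 in that comparison (all genes, 4.42%), with 6 at an unadjusted p under 0.05, near the 19.6% of all genes.

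The tumours differed among themselves. Lymphoma 8 held the highest value of its group for 15 of the 32 genes and lay above the group mean for 28. Lymphoma 4 held the highest for 8 and lay above the mean for 31. Lymphoma 1 held the lowest for 18, and lymphoma 6 for 7. Lymphoma 8 also had the highest summed signal of 12 macrophage markers, 22771 against 7329 to 11945 in the other 7, and of 10 stroma and endothelium markers, 6126 against 1398 to 3650. Lymphoma 1 had the lowest of both. The order was not the same throughout. Lymphoma 4 had a macrophage sum of 11180, below the 11700 of lymphoma 2, which lay above the group mean for 11 genes. For mature single-positive thymocyte markers lymphoma 4 had the highest sum, 7331. The part of such cells in the values of the 32 genes was not tested. Without lymphoma 8, 25 genes were lower than in controls (all genes, 21.1%), and without lymphoma 1 it was 24 (24.2%).

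Other genes of the pathway gave the setting. Of 77 tested genes on these lists 17 were lower and 2 higher before transformation, 17 lower and 10 higher in lymphomas than before transformation, and 32 lower and 10 higher in lymphomas than in controls. The shares of all genes were 6.18% and 4.37%, 18.3% and 16.0%, and 22.7% and 17.4%, so the counts of the second comparison are near the background. The receptor chain Ifngr1, which binds interferon gamma, fell at both steps. It ran from 1834 (median 2112) to 2610 in controls, 896 (921) to 1100 before transformation and 267 (353) to 736 in lymphomas, with no overlap between any groups (log2 differences of -1.23 ± 0.11, adjusted p = 1.8e-05, and -1.30 ± 0.21, adjusted p = 0.00037). Ifnar1 fell before transformation, from a median of 531 to 374 (-0.51 ± 0.08, adjusted p = 0.0017), and so did Ifngr2 (-0.38 ± 0.10, adjusted p = 0.027). In lymphomas neither was shown to differ from controls.

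For the lists that follow, 6.18% of all genes were lower and 4.37% higher before transformation than in controls. In lymphomas these shares were 18.3% and 16.0% against the group before transformation, and 22.7% and 17.4% against controls. Of the 5 kinases and STATs tested, Jak1 and Jak2 were lower in lymphomas than before transformation (-0.83 ± 0.16, adjusted p = 0.0013, and -0.80 ± 0.22, adjusted p = 0.011). Stat4, a mediator of interleukin-12 signals, was lower before transformation (-1.58 ± 0.22, adjusted p = 0.00066). Among 4 interferon ligands tested, Ifna4 alone passed and was higher in lymphomas than in controls (0.68 ± 0.10, adjusted p = 7.8e-05). Ifng was at the floor in every lymphoma. Of 13 inducers of interferon, 5 were higher in lymphomas than before transformation (all genes, 16.0%). Among them was Tmem173 (STING, 1.39 ± 0.32, adjusted p = 0.0040), which had been lower before transformation than in controls (-0.82 ± 0.13, adjusted p = 0.0018). Dhx58 (0.72 ± 0.17, adjusted p = 0.0040) and Tlr9 (0.64 ± 0.17, adjusted p = 0.010) were others. Irf3 alone of the 13 was lower (-0.45 ± 0.12, adjusted p = 0.010). None of the 8 negative regulators was higher in any comparison in limma (at an unadjusted p under 0.05, 1 before transformation and 0 in the others), and Pias1, Irf2, Socs3 and Ptpn6 were lower in lymphomas than in controls.

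Further interferon targets moved in both directions. Of 41 tested, 11 were lower and 2 higher before transformation (all genes, 6.18% and 4.37%), 10 lower and 4 higher in lymphomas than before transformation (18.3% and 16.0%), and 22 lower and 6 higher in lymphomas than in controls (22.7% and 17.4%). Gbp6 fell at both steps, by 1.48 ± 0.22 and by 1.46 ± 0.34 on the log2 scale (adjusted p = 0.00090 and 0.0044). Gbp7 did so too (-0.44 ± 0.11, adjusted p = 0.024, and -1.20 ± 0.24, adjusted p = 0.0017). Ifi27l2a, an interferon alpha-inducible protein, ran as Bst2 did, with a median of 1175 in controls, 168 before transformation and 413 in lymphomas. It was lower before transformation (-2.39 ± 0.37, adjusted p = 0.0012) and higher in lymphomas than in that group (0.97 ± 0.31, adjusted p = 0.023). Trim30a was lower in lymphomas than in controls (-2.81 ± 0.37, adjusted p = 3.6e-05).

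Cell markers moved with the groups. Over all genes tested, 6.18% were lower before transformation than in controls. In lymphomas against controls 22.7% were lower and 17.4% higher. Of 13 mature single-positive thymocyte markers 9 were lower before transformation and 12 in lymphomas than in controls, and their summed signal was 10665 to 13684 in controls, 4989 to 11792 before transformation and 3359 to 7331 in lymphomas. Ms4a4b and Socs3 stand on that list and on those of the pathway. Of 12 macrophage markers none passed before transformation, at an adjusted or an unadjusted p under 0.05 in limma, and 8 were higher and 2 lower in lymphomas than in controls, with sums of 3550 to 5696, 2136 to 5505 and 7329 to 22771. Granulocyte markers summed to 3663 to 10539 in controls, 1959 to 3006 before transformation and 2216 to 5120 in lymphomas, and 5 of 9 were lower before transformation, where Camp and Cxcr2 were at the floor in all 5 mice. Double-positive thymocyte markers were lower in lymphomas than in controls for 12 of 13, and T-cell markers for 6 of 8, with sums of 36647 to 40274 in controls, 29935 to 40018 before transformation and 15091 to 21569 in lymphomas. The part of these cell types in the interferon response genes' differences was not tested.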

How the data were processed

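Total RNA was hybridized to Affymetrix mouse expression arrays, 1 per mouse, and the authors analysed them with dChip, as the series' design text states. The deposited intensity values are on a linear scale, and no source used here gives the dChip version, model or scaling. Of 811818 values 9775 (1.20%) were blank. Blank and low values were set to the 20th percentile of all values and log2 was taken. Array control probe sets (64 of 45101) were left out, 34945 probe sets carried 1 gene symbol, 932 several and 9160 none, and 1 probe set per gene was kept. Each pair of groups was fitted alone with limma 3.58.1 (R 4.3.3; trended eBayes, no covariates), with Benjamini-Hochberg adjustment over all 14019 genes above the 40th percentile on at least 5 arrays. The code was tested on simulated data. With no detection calls, the number of mice limits the precision.

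The genes and lists were chosen with earlier results of these data known. Values per mouse are given for genes past the threshold, those without overlap first, and for others by role. Alternatives covered scaling, floor, filter, probe-set choice, blocks, number sets, sex and single mice.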

Additional observations from a re-analysis of the deposited data

Results flagged for a closer look

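In 3 of 96 gene and group combinations 1 mouse stood apart from the rest of its group, where chance gives about 1 in 20. Lymphoma 1 was lowest for Oas1a, at a log2 signal of 7.03 where the nearest other lymphoma was at 7.84, and for Rsad2, at 7.23 where the nearest was at 7.79. Mouse 3 before transformation was highest for Bst2, at 7.39 where the nearest was at 6.36.

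The difference between groups itself differed between mice 1 and 2 and the rest for 5 genes, in a test chosen after the data were seen. Between mice before transformation and controls the extra log2 difference in mice 1 and 2 was -1.21 for Zbp1, -1.11 for Isg20, -2.36 for Usp18 and -1.74 for Iigp1. Between lymphomas and controls it was -0.70 for Stat2. Usp18 was at the floor in mice 1 and 2 before transformation.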

How the results depend on the processing

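Before transformation against controls, 11 genes were lower, against 6.18% of all genes. Shares of all genes under each alternative stand in brackets. The count of lower genes was 6 with no filter on dim genes (4.58%), 4 with all groups in 1 fit (3.20%) and 7 with mouse number as a replicate block (5.97%). It was 20 in mice 1 and 2 (4.59%), 1 in mice 3 and up (5.07%), 2 in males (3.26%) and 7 to 15 without single mice (4.5% to 7.1%). The count of higher genes (0) was 1 in mice 3 and up (3.995%), and 0 to 1 without single mice (3.57% to 4.58%). Against the group before transformation, lymphomas had 2 higher genes (16.0%). These became 1 with the replicate block (17.1%), 0 in mice 1 and 2 (9.965%), 1 in mice 3 and up (18.7%) and 1 to 2 without single mice (12.3% to 17.3%). The 12 lower (18.3%) became 5 in mice 1 and 2 (8.38%), 13 with the block (18.2%) and 9 to 13 without single mice (14.1% to 19.7%). Against controls 0 higher became 1 in mice 3 and up (20.7%). The 23 lower (22.7%) were 21 to 25 without single mice (18.8% to 24.2%) and 23 with the block (19.6%). Under at least 1 alternative the sign changed for 8, 8 and 7 of the 32 genes in the 3 comparisons, none of which had passed in that comparison. Of the genes followed singly these were Samhd1 (-0.11) and Iigp1 (0.16) in lymphomas against the group before transformation with the mean of all probe sets, Oasl1 (-0.42) and Iigp1 (0.68) in mice 1 and 2 there, Oasl1 (-0.47) in mice 1 and 2 against controls, and Samhd1 (0.0075) in mice 3 and up against controls. The cause was not tested, apart from fewer mice in the subsets. Same-numbered mice were not shown to be paired: the correlations of their deviations from group means were -0.14 to 0.41, and of the 5 shared numbers a mouse was most like its own for 1, 1 and 0 in the 3 comparisons. Genes near the floor have compressed differences.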

Other observations

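The 10 genes outside every list whose signals ran closest to the mean of the 32 genes, over 18 mice with group means removed, were Ms4a6b (Pearson r 0.94), Capg (0.93), App (0.93), Igfbp4 (0.92), Cd53 (0.92), H2-M3 (0.91), Adtrp (0.91), B2m (0.91), Shisa5 (0.90) and Nod1 (0.89). The mice share arrays, scaling and cell mixture across all genes, so these values are a description. B2m and H2-M3 belong to antigen presentation by class I molecules, and Ms4a6b and Cd53 are surface proteins of white blood cells. Ms4a6b was lower before transformation than in controls (-2.02 ± 0.25, adjusted p = 0.00022), as was Cd53 (-1.62 ± 0.46, adjusted p = 0.042), whereas H2-M3 did not pass (-0.26 ± 0.13, adjusted p = 0.30).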
